A study of Rattus norvegicus with 6 samples.

Results

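miR-221 and miR-222 were described here from 4 rows of a deposited table of miRNA counts in rat brain. The rows are the 3p and 5p arms of both hairpins, rno-miR-221-3p, rno-miR-221-5p, rno-miR-222-3p and rno-miR-222-5p (rno for rat, left out below), and they were chosen by name as the products of 1 transcript. They are 4 of the 775 miRNAs that the table lists. All 4 had at least 10 counts in total and were therefore among the 454 miRNAs tested.

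The table holds 6 small RNA libraries, all from rats that had undergone 2-vessel occlusion (2VO), in which both common carotid arteries are ligated to lower blood flow to the brain. The 3 libraries of the 2VO group came from rats given the vehicle, 0.5% carboxymethylcellulose sodium at 5 mL/kg. The 3 libraries of the tilianin group came from 2VO rats given tilianin, a flavonoid glycoside, in the same vehicle by gastric tube at 40 mg/kg daily for 4 weeks. The animals were male Sprague–Dawley rats of 7 weeks at purchase, all 6 libraries carry the ligation, and libraries of sham rats were not analysed here. The sources do not say whether each library is 1 rat, so p-values measure the spread between these libraries, which may be technical. The brain was the labelled tissue, the study names cortical tissue in a legend, and the sources do not say which part of the brain each library was taken from. In bulk tissue, fewer cells of a type and less of a miRNA per cell cannot be told apart.

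A miRNA hairpin is cut into a duplex, and as a rule 1 strand, the guide, is retained in the silencing complex, while the other, the passenger, is mostly lost. Bases 2 to 8 of the guide form the seed, which pairs with target mRNAs. miR-221 and miR-222 are known for repressing the cell cycle inhibitor Cdkn1b and the stem cell factor receptor Kit, and are studied in endothelial and vascular smooth muscle cells. In RefSeq (build GRCr8), Mir222 and Mir221 are consecutive genes on the plus strand of chromosome X. Both lie within the spans of the long non-coding RNA genes LOC120099382 and LOC120099384. Positions are not given since the build behind the counts is not named in the sources used here.

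The mature sequences of the 4 rows, all found by name in RefSeq (build GRCr8), are shown because their seeds set which rows share targets. Each is written 5′ to 3′ with the seed in capitals.
miR-221-3p: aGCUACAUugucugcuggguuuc
miR-222-3p: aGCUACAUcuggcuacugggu
miR-221-5p: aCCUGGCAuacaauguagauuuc
miR-222-5p: gGCUCAGUagccaguguagau

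The 3p arms share the seed GCUACAU, and among 693 named mature miRNAs in that table no other has it. They are identical over their first 8 bases and at 11 of the first 21 positions, so that full-length reads of each can be told apart. The 5p arms have seeds of their own, CCUGGCA and GCUCAGU, which no other mature miRNA of the table has. The mature forms are 21 or 23 bases long and a read covers a whole molecule, so levels below are compared between rows as reads, without a correction for length. None of the 4 rows had counts identical to those of another row.

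The 6 libraries held 7175872 to 13198776 counts, and 3 counts, the limit that a count of 0 allows, correspond to 0.227 to 0.418 CPM (counts scaled to library size) by library totals. These limits and the intervals below cover counting error only. Tilianin replicate 2 stood apart before any result on the members. Its Spearman correlations with the other libraries across the tested miRNAs were at most 0.957, whereas each other library had a highest correlation of 0.985 to 0.992. Of the brain markers, miR-124-3p, miR-9a-5p and miR-128-3p were abundant in every library, whereas the oligodendrocyte miRNA miR-219a-5p was listed at 0 or 1 counts.

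miR-221-3p was the most abundant of the 4 rows and the main strand of its hairpin, called its guide strand below. After scaling by the TMM method of edgeR, its level was 3329, 3383 and 3073 CPM across 2VO replicates 1 to 3. Across tilianin replicates 1 to 3 it was 2423, 256 and 3072 CPM. The 2VO libraries were close together, with a coefficient of variation of 5.08%, and tilianin replicate 2 lay far below all others. By CPM the groups did not overlap, but only because the highest treated library was just under the lowest 2VO library. With DESeq2 size factors or library totals the groups overlapped. Of all tested miRNAs, 4.19% had every treated library below every 2VO library.

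miR-222-3p, which carries the same seed, was less abundant. Its level was 751, 821 and 825 CPM across 2VO replicates 1 to 3, and 912, 70.2 and 749 CPM across tilianin replicates 1 to 3. Here the treated group held both the highest and the lowest library. By mean level, miR-221-3p ranked 37 and miR-222-3p ranked 75 among the tested miRNAs.

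miR-221-5p, the less abundant arm of its hairpin, was itself well above the level of miR-222-3p in every library. Its level was 1666, 1772 and 1436 CPM across 2VO replicates 1 to 3, and 1308, 208 and 1489 CPM across tilianin replicates 1 to 3. The groups overlapped, and the order of the treated libraries was that of miR-221-3p.

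miR-222-5p was near the limit of detection. It was read 18, 22 and 16 times across 2VO replicates 1 to 3, and 17, 4 and 16 times across tilianin replicates 1 to 3, or 0.616 to 2.07 CPM. The 95% Poisson interval of the 4 counts in tilianin replicate 2 was 1.09 to 10.2 counts, and those of the other libraries began at 9.15 to 13.8 counts. The low value there was therefore not separated from all the others beyond counting error.

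**Figure D1:**
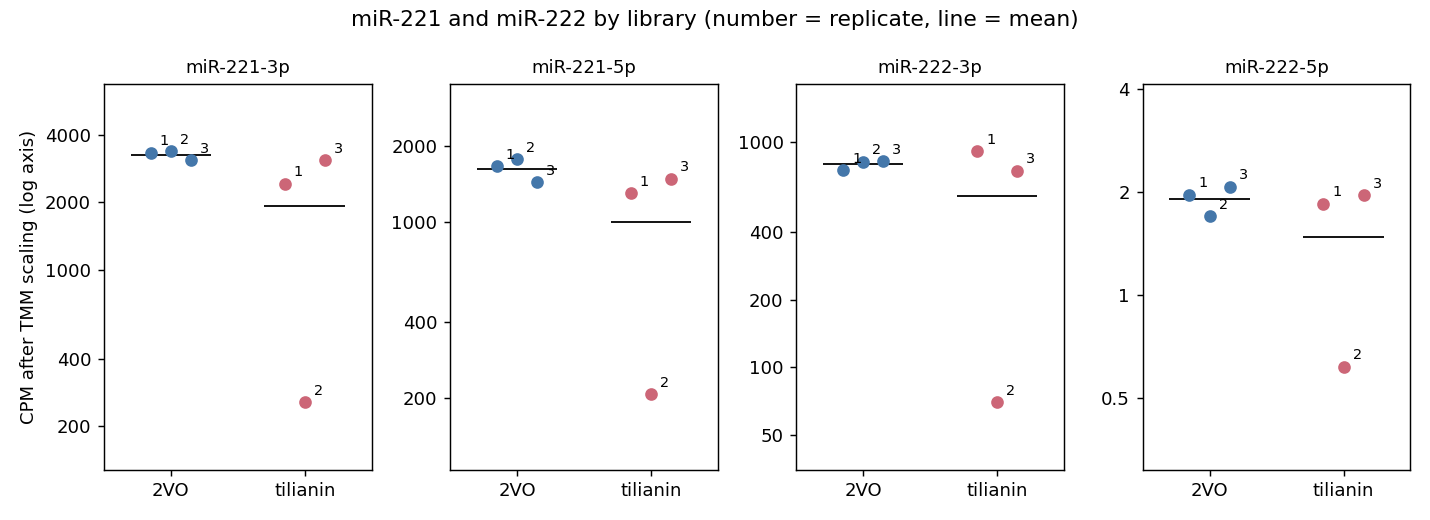
CPM after TMM scaling (log axis, different range in each panel) of the 4 rows, with 1 point per library, the replicate number beside it and a line at the group mean. Tilianin replicate 2 is the lowest library in each panel, at 256 CPM for miR-221-3p and 70.2 CPM for miR-222-3p, and the other 5 libraries lie close together.

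Together the 4 rows made up 0.604%, 0.587% and 0.555% of all counts across 2VO replicates 1 to 3. Across tilianin replicates 1 to 3 they made up 0.452%, 0.0484% and 0.563%. Tilianin replicate 3 was thus within the range of the 2VO libraries, replicate 1 somewhat under it and replicate 2 far under it.

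The comparison of tilianin with 2VO asked whether treatment changed these miRNAs in the occluded brain. None of the 4 rows passed the study's criterion, an unadjusted p-value below 0.05 with an absolute log2 fold change above 1, in edgeR's quasi-likelihood test. Over all tested miRNAs, 5.73% passed it, and 7.27% had an unadjusted p-value below 0.05. The lowest unadjusted p-value of the 4 rows was 0.300 in edgeR and 0.226 in DESeq2's Wald test. For miR-221-3p the group means were 3262 ± 166 CPM for 2VO and 1917 ± 1475 CPM for tilianin (SD, n = 3 each). Its log2 fold change was -0.77 (standard error 0.737, 95% interval -2.50 to 0.97), with an adjusted p of 0.835 from edgeR's quasi-likelihood test.

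The other guide strand, miR-222-3p, had means of 799 ± 41.3 CPM and 577 ± 446 CPM (SD, n = 3 each). Its log2 fold change was -0.47 (95% interval -2.25 to 1.31), with an adjusted p of 0.882 from the same edgeR test. For the 5p arms, miR-221-5p had a log2 fold change of -0.70 (95% interval -2.17 to 0.77) and miR-222-5p one of -0.35 (95% interval -1.45 to 0.76). Their adjusted p-values in edgeR were 0.826 and 0.861. All 4 estimates were below 0, and every interval spanned 0 and reached past a 2-fold decrease, so that with 6 libraries changes of that size could be neither shown nor dismissed.

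For 3 of the 4 rows the width of these intervals rested on tilianin replicate 2. Without it, the log2 fold change of miR-221-3p was -0.24 (95% interval -0.65 to 0.18) and that of miR-221-5p was -0.21 (95% interval -0.63 to 0.22). That of miR-222-3p was 0.075 (95% interval -0.33 to 0.48) and that of miR-222-5p was 0.016 (95% interval -0.90 to 0.93), so both changed sign. The unadjusted p-values of edgeR's quasi-likelihood test in this fit ran from 0.229 for miR-221-3p to 0.969 for miR-222-5p. Without this library the intervals of all 4 rows lay within a 2-fold change in either direction. The standard error for miR-221-3p was 0.184, against 0.737 with all libraries, and those of miR-222-3p and miR-221-5p fell likewise. For miR-222-5p, with its few counts, it was 0.408 against 0.468. Leaving out any of the other 5 libraries left all 4 estimates below 0.

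**Figure D2:**
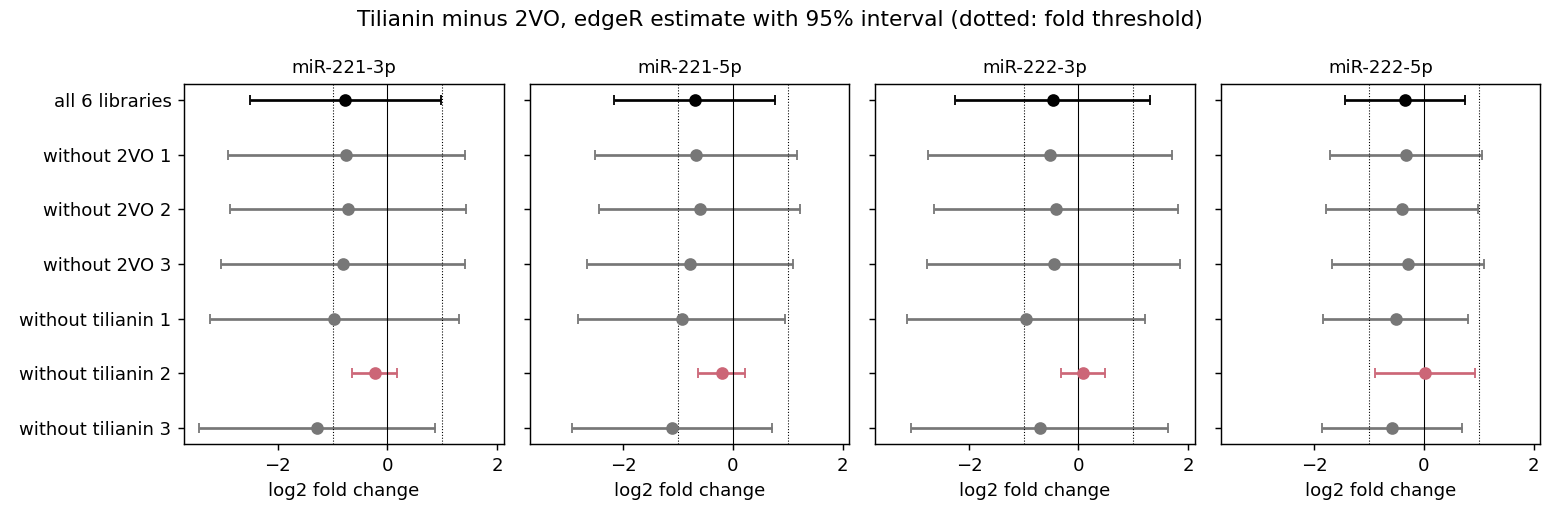
Log2 fold change (tilianin minus 2VO, horizontal axis) of each row with its 95% interval from edgeR, with all 6 libraries (black) and after leaving out single libraries. The interval of miR-221-3p runs from -2.50 to 0.97 with all libraries and from -0.65 to 0.18 without tilianin replicate 2 (red), and dotted lines mark the fold change threshold of 1.

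How far tilianin replicate 2 departed was set against every other library and miRNA. For each library, log2(CPM + 1) was compared with the median of the other 5 libraries, over the 269 miRNAs with a mean of at least 10 CPM. In tilianin replicate 2, miR-221-3p was 3.58 below the median of the others on this log2 scale, the lowest of the 269. miR-222-3p was 3.53 below it and ranked 2 from the lowest, and miR-221-5p was 2.83 below it and ranked 5. In CPM, miR-221-3p was 9.46-fold, miR-222-3p 10.7-fold and miR-221-5p 6.28-fold below the lowest of the other 5 libraries, which differed among themselves by at most 1.40-fold.

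In the other 5 libraries these 3 rows deviated by between -0.34 and 0.30, and their ranks lay between 44 and 246 of 269. miRNAs more than 1 below the median of the others numbered 42 in tilianin replicate 2, or 15.6%, and 0 to 9 in each other library. The low members were thus part of a wider departure of that library, in which 23 miRNAs were also more than 1 above the median. The highest of these was miR-10a-5p, a miRNA of a Hox cluster picked after its values were seen, with 11292 CPM in tilianin replicate 2. It had 162 and 297 CPM in tilianin replicates 1 and 3, and 37.2 to 65.6 CPM in the 2VO libraries. This miRNA was thus higher in every treated library than in any 2VO library. The miRNAs miR-1298, miR-448-3p and miR-1912-3p, encoded in introns of the serotonin receptor gene Htr2c, and miR-204-5p, are all known from the choroid plexus. Likewise picked after their values were seen, they were 4.64, 4.21, 4.51 and 3.04 above the median of the other libraries there. They were also raised in tilianin replicate 1, where their deviations on the same scale were 1.83, 1.55, 1.70 and 1.40. In tilianin replicate 3 these deviations were -1.11, -0.87, -0.26 and -0.31. miR-219b and miR-338-3p, miRNAs of oligodendrocytes picked in the same way, were 1.31 and 1.19 above the median of the others in tilianin replicate 2. They also varied among the other libraries, from -1.08 to 0.48 for miR-219b and from -0.82 to 0.69 for miR-338-3p. The part of these miRNAs or their cells in the result was not tested, and a difference in the sampled part of the brain cannot be told apart from other differences of this library.

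**Figure D3:**
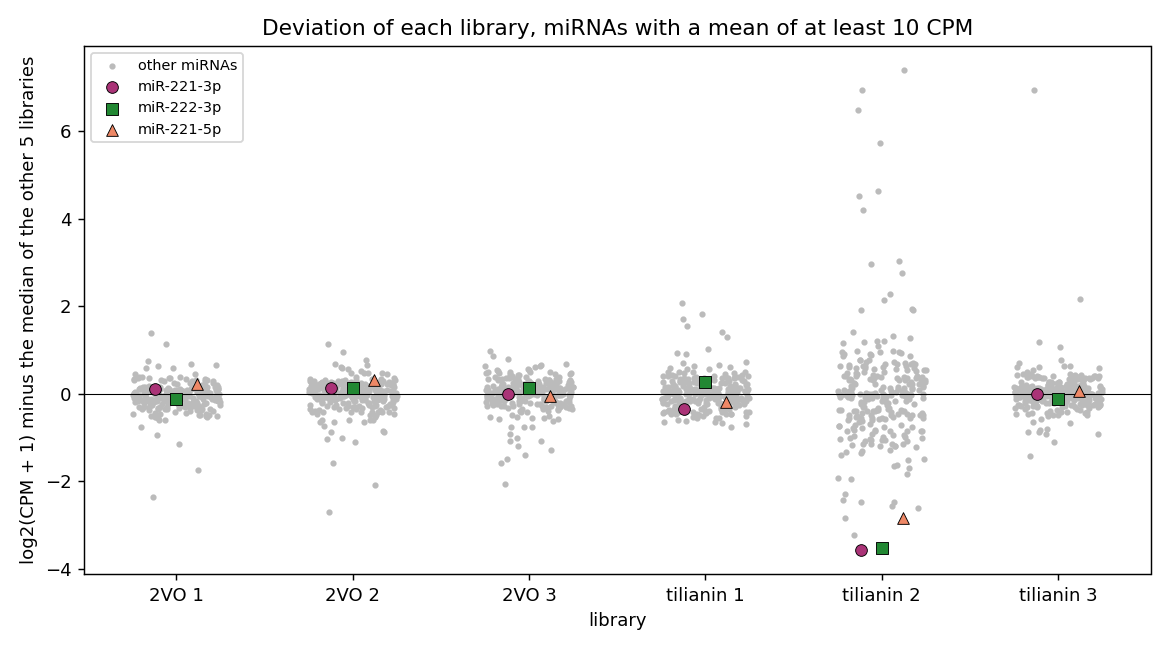
Log2(CPM + 1) of each library minus the median of the other 5 libraries (vertical axis), for the 269 miRNAs with a mean of at least 10 CPM (grey) and for miR-221-3p, miR-222-3p and miR-221-5p (coloured). In tilianin replicate 2 the coloured points lie at -3.58, -3.53 and -2.83, at the lower edge of a wide cloud, and in the other libraries they lie near 0.

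The arms of each hairpin were then compared within libraries, where library size cancels. For miR-221, the 5p arm made up 33.4%, 34.4% and 31.8% of the reads of both arms across 2VO replicates 1 to 3, and 35.1%, 44.8% and 32.6% across tilianin replicates 1 to 3. The 95% Wilson interval in tilianin replicate 2 was 43.1 to 46.6%, above those of all other libraries, the highest of which ended at 35.6%. The 3p arm was therefore lower in that library to a greater extent than the 5p arm, beyond counting error. The log2 ratio of 5p to 3p reads of miR-221 in tilianin replicate 2 differed by 0.70 from the median of the other libraries. Among the 151 hairpins with both arms tested, this shift ranked 46 by size, and the median absolute shift was 0.435. The rank takes no account of counting error. The less abundant arm had 74932 counts in total for miR-221 and 13 for the hairpin that shifted most. Among the other libraries the log2 ratio of miR-221 spanned only 0.21. A hairpin with 25598 counts of its less abundant arm shifted further than miR-221, by 0.85. Between the groups, the log2 ratio of 5p to 3p reads differed by 0.27 (tilianin minus 2VO), with p = 0.4 in a two-sided exact permutation test. With 3 libraries a group this test cannot give a p below 0.1. Without tilianin replicate 2 the difference was 0.042.

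For miR-222, the 5p arm made up 0.202 to 0.260% of the reads of both arms in the 5 libraries other than tilianin replicate 2. In tilianin replicate 2 it made up 0.870%, with a 95% Wilson interval of 0.339 to 2.21% that rests on 4 counts and overlaps the intervals of some other libraries. The log2 ratio of 5p to 3p reads averaged -8.67 ± 0.184 for 2VO and -8.04 ± 1.20 for tilianin (SD, n = 3 each), with p = 0.6 in the exact permutation test. Without tilianin replicate 2 the difference changed sign, from 0.64 to -0.049.

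The hairpins therefore differed in how unevenly their arms were read. Whether these read shares follow the amount of each arm in the tissue was not tested. Over the same 151 hairpins, the less abundant arm had a median share of 4.80%. The share of 35.4% for miR-221, as the mean of the 6 libraries, ranked 18 from the most even, and the share of 0.341% for miR-222 ranked 124. Hence neighbouring hairpins of 1 transcript lay on opposite sides of the median, with miR-221-5p read in large numbers and miR-222-5p hardly at all.

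The balance between the 2 guide strands, which share their seed, was also followed. miR-221-3p made up 81.6%, 80.5% and 78.8% of the reads with this seed across 2VO replicates 1 to 3, and 72.7%, 78.5% and 80.4% across tilianin replicates 1 to 3. Tilianin replicate 1 was the lowest, with a 95% Wilson interval of 72.2 to 73.2%, whereas tilianin replicate 2 was close to the 2VO libraries although both strands were low there. The log2 ratio of miR-221-3p to miR-222-3p averaged 2.03 ± 0.126 for 2VO and 1.77 ± 0.323 for tilianin (SD, n = 3 each). The difference of -0.26 gave p = 0.2 in the exact permutation test, and fell in size to -0.079 without tilianin replicate 1. Adjusted by the Benjamini-Hochberg method over the 3 ratios compared, each of these exact permutation p-values was 0.6.

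**Figure D4:**
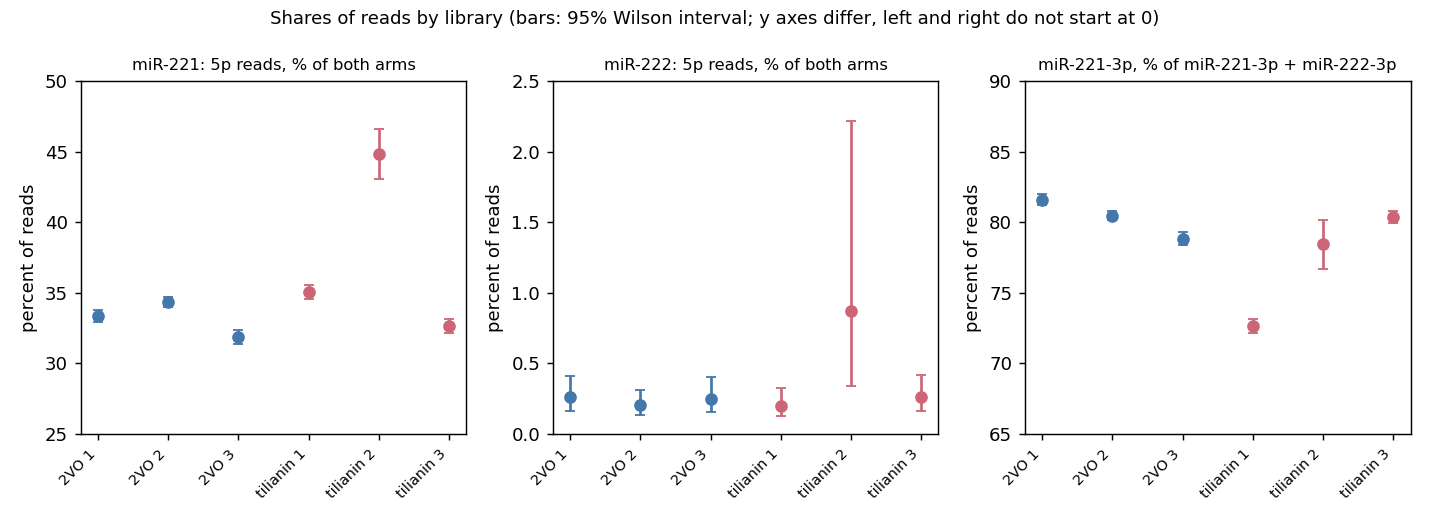
Percent of reads by library, with 95% Wilson intervals, for the 5p arm of miR-221 among both arms, the 5p arm of miR-222 among both arms, and miR-221-3p among the reads of both 3p arms (vertical axes differ). Tilianin replicate 2 stands out at 44.8% in the left panel, and tilianin replicate 1 at 72.7% in the right panel.

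Which miRNAs had profiles most like those of the guide strands was measured by the SD, over the 6 libraries, of the log2 ratio of 2 miRNAs, where a small SD means that they moved together. All profiles share the same 6 libraries, so these values are descriptions. Of 268 miRNAs with a mean of at least 10 CPM, miR-222-3p was the closest to miR-221-3p, with an SD of 0.261, and miR-221-5p came next with 0.293, against a median of 1.46. Apart from the members, the closest to miR-221-3p were miR-139-5p with an SD of 0.341, miR-7a-2-3p with 0.406 and miR-128-1-5p with 0.466. The closest to miR-222-3p were the same 3 miRNAs, with SDs of 0.201, 0.280 and 0.367. miR-139-5p was thus closer to miR-222-3p than miR-221-3p was.

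miR-139-5p had 956, 1246 and 1421 CPM across 2VO replicates 1 to 3, and 1300, 133 and 1219 CPM across tilianin replicates 1 to 3. Like the members, it was low in tilianin replicate 2 alone. This likeness came from that library. Without it, miR-222-3p ranked 148 and miR-139-5p ranked 184 of 268 in closeness to miR-221-3p, with SDs of 0.291 and 0.341 against a median of 0.278. By contrast, miR-221-5p still ranked 7, with an SD of 0.0836. So the arms of the miR-221 hairpin stayed together in all libraries but tilianin replicate 2. Without that library, the guide strands of the neighbouring hairpins were not closer to each other than to most miRNAs, and this rested largely on tilianin replicate 1. The log2 ratio of miR-221-3p to miR-222-3p was 1.41 there. It was 2.15, 2.04 and 1.90 across 2VO replicates 1 to 3, and 2.04 in tilianin replicate 3.

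**Figure D5:**
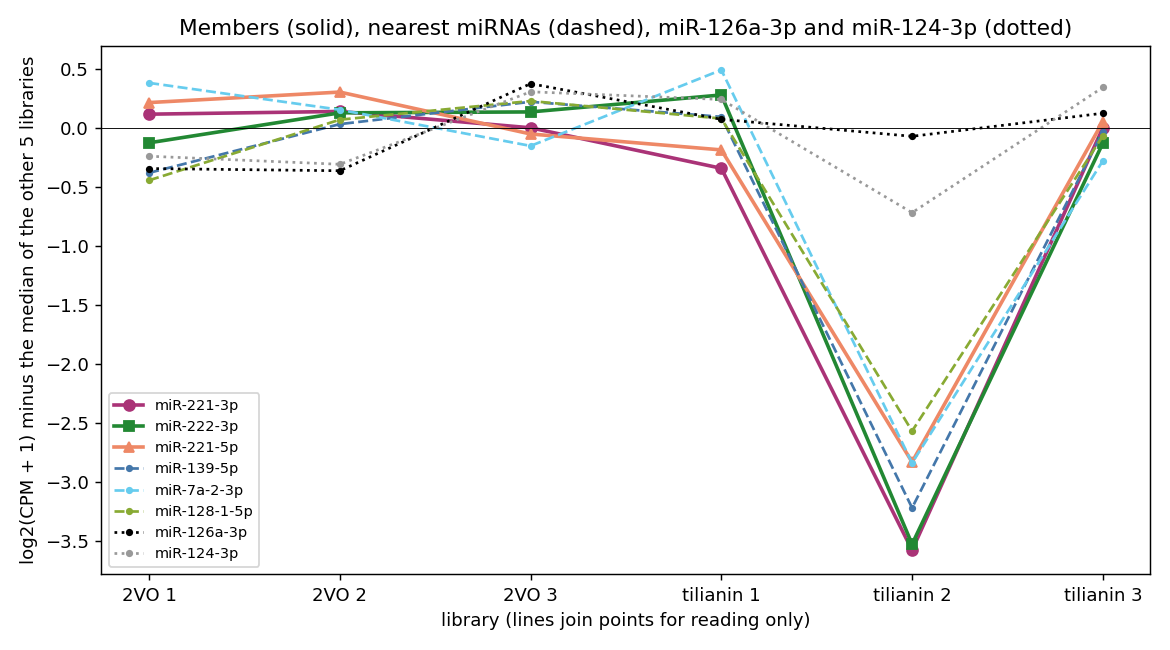
Log2(CPM + 1) of each library minus the median of the other 5 libraries. Solid lines are miR-221-3p, miR-222-3p and miR-221-5p, and dashed lines are the 3 miRNAs with the closest profiles. Dotted lines are references, the endothelial miR-126a-3p and the neuronal miR-124-3p. The closest miRNAs were chosen over all 6 libraries, so their drop in tilianin replicate 2 follows from that choice. In that library miR-221-3p lies at -3.58, miR-126a-3p at -0.072 and miR-124-3p at -0.72.

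Pairs of miRNAs that are known to come from shared transcripts gave a scale for the guide strands. Among 13 such pairs, the guide strands included, the SD of the log2 ratio over the 6 libraries ranged from 0.105 for miR-17-5p and miR-20a-5p to 1.10 for miR-143-3p and miR-145-5p, which had few counts. The pair of miR-221-3p and miR-222-3p ranked 8 from the steadiest. miR-132-3p and miR-212-3p, miRNAs induced by neuronal activity, were also low in tilianin replicate 2, by 2.48 and 2.47 on the log2 scale, and their ratio varied with an SD of 0.125. Without tilianin replicate 2 the SD for miR-221-3p and miR-222-3p was 0.291, and only the pair of miR-143-3p and miR-145-5p had a larger one. That SD of 0.291 rested largely on tilianin replicate 1, where the log2 ratio was lowest, at 1.41.

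Since miR-221 and miR-222 are studied in vessels, other miRNAs of vascular regulation were read beside them. Of 26 on this list, 22 were tested, and in edgeR 0 passed the study's criterion in either direction or had an unadjusted p-value below 0.05. Over all tested miRNAs these edgeR shares were 5.73% and 7.27%, so with 22 miRNAs a count of 0 says little about the list. DESeq2's Wald test called 1 of them, miR-34a-5p, a miRNA induced by p53, with an unadjusted p-value of 0.0116, where the same test called 4.85% of all tested miRNAs. miR-34a-5p had 624 CPM in tilianin replicate 2 and 69.0 to 119 CPM in the other libraries, and its log2 fold change in edgeR was 1.63 with that library and 0.16 without it. The median log2 fold change of the tested miRNAs on the list was 0.20, against -0.034 over all tested miRNAs. Without tilianin replicate 2 these medians were 0.13 and 0.0096. The endothelial miR-126a-3p, from an intron of Egfl7, ranged from 4538 to 7201 CPM among 2VO libraries and from 5555 to 6052 CPM among treated ones. Its level in tilianin replicate 2, 5555 CPM, lay among the others. The part of endothelial cells in the low counts of miR-221 and miR-222 was not tested. The smooth muscle miRNAs miR-143-3p and miR-145-5p had at most 24 and 5 counts in any library, and miR-21-5p at most 8, so the table gives little information on them.

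Marker sums of other cell types were also read by library, and not all of them followed tilianin replicate 2. Of 4 brain markers 3 were tested, and their summed level was 126366 to 159150 CPM among 2VO libraries and 83358 CPM in tilianin replicate 2, the lowest of the 6 libraries. Among them, miR-128-3p, a neuronal miRNA, was 2.61 below the median of the other libraries on the log2 scale, whereas miR-124-3p was 0.72 below. Of 4 erythroid markers 2 were tested, with a sum of 154 to 198 CPM for 2VO and 338 to 880 CPM for tilianin, highest in replicate 2. Of these markers miR-451-5p had at most 4 counts and miR-144-5p at most 1. All 6 leukocyte markers were tested, with sums of 776 to 1163 CPM for 2VO and 998 to 1403 CPM for tilianin, again highest in replicate 2. Of 5 mural and mesenchymal markers 3 were tested, with sums of 2.16 to 4.14 CPM for 2VO and 4.78 to 7.69 CPM for tilianin. In tilianin replicate 2 that sum was 7.08 CPM, not the highest, and miR-199a-5p was at 0 in every library. In edgeR, 1 tested member each of the erythroid, leukocyte and mural lists passed the study's criterion, namely miR-486, miR-223-3p and miR-214-3p, all upward. Of the brain and endothelial lists 0 did in edgeR or DESeq2. Over all tested miRNAs, 5.73% passed it in edgeR and 4.85% in DESeq2. Without tilianin replicate 2, 13 of 445 miRNAs, or 2.92%, passed the criterion in edgeR, among them miR-486 and miR-214-3p but not miR-223-3p. In the remaining treated libraries the sums were then 142045 to 157212 CPM for the brain markers and 998 to 1121 CPM for the leukocyte markers. The erythroid sums, 338 to 406 CPM, and the mural and mesenchymal sums, 4.78 to 7.69 CPM, still lay above every 2VO library. The erythroid sums were nearly all miR-486. The other tested erythroid marker, miR-144-3p, had 0.326 and 0.488 CPM in tilianin replicates 1 and 3. Across 2VO replicates 1 to 3 it had 2.29, 0.232 and 0.259 CPM. The mural and mesenchymal sums rested on few counts, with miR-214-3p at 11 to 38 counts per library. The part of these cell types in the low counts of miR-221 and miR-222 was not tested.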

How the data were processed

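The authors deposited raw read counts per mature miRNA for each library, without normalization. Per the labels, the libraries were made with the TruSeq small RNA kit, and the submitters' processing notes name FastQC 0.11.2, Trimmomatic 0.36, cutadapt 1.14 and DESeq2 1.12.4. The aligner, miRNA reference, build and counting program are not given in the sources used here, so how reads that fit several miRNAs were divided is unknown. Columns were mapped by the library code in the labels, in which 2VO replicate 3 has the number 4.

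Rows with a total of at least 10 counts were scaled with TMM, and the groups were compared by the quasi-likelihood test of edgeR 4.0.16 (limma 3.58.1, R 4.3.3), with no term besides the group. P-values were adjusted over all tested miRNAs by the Benjamini-Hochberg method. Standard errors and intervals are approximations from the F statistic. Ratios within a library used counts plus 0.5 and a two-sided exact permutation test (scipy 1.17.1). Likeness used log2(CPM + 0.5). The alternatives were DESeq2 size factors, library totals, the Wald test of DESeq2 1.42.0, filterByExpr, no filter, a replicate block, each library left out, and other pseudocounts for ratios. The code was tested on simulated data.

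Named miRNAs were the members, miRNAs of the written lists and pairs, those sharing a seed with a member and the 3 nearest by likeness to each guide strand. Outside this rule, miR-10a-5p and the choroid plexus and oligodendrocyte miRNAs given beside it were picked after their values were seen. The members and lists were chosen with earlier results of these data known. Sham libraries were not analysed here.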

Additional observations from a re-analysis of the deposited data

How the results depend on the processing

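With DESeq2 size factors, library totals, DESeq2's Wald test, filterByExpr and no filter, all 4 members kept a negative log2 fold change short of the study's criterion. With the replicate number as a block, the log2 fold changes lay between -1.27 (miR-221-3p) and -0.45 (miR-222-5p), with unadjusted p-values of 0.172 to 0.374 from edgeR's quasi-likelihood test. The sources do not say whether the numbers pair the libraries. Same-numbered libraries deviated from their group means with correlations of -0.12, 0.0092 and 0.30, which cannot settle it. When single libraries were left out, the log2 fold change was -1.29 to -0.24 for miR-221-3p, -1.10 to -0.21 for miR-221-5p, -0.96 to 0.075 for miR-222-3p and -0.58 to 0.016 for miR-222-5p. The values above 0 were those without tilianin replicate 2. The difference between groups in the log2 ratio of 5p to 3p reads was 0.042 to 0.42 for miR-221 and -0.049 to 1.07 for miR-222, with the lowest value of each without tilianin replicate 2, and that in the log2 ratio of the 3p arms was -0.39 to -0.079. Other pseudocounts changed no direction. Over all miRNAs, 26 passed the criterion, against 16 with filterByExpr and 13 under the block. Leaving out single libraries gave 9 (without 2VO replicate 2) to 34 (without tilianin replicate 1). The count was 12 and 13 without 2VO replicates 1 and 3 and 13 without tilianin replicate 2. The cause was not tested. Depth limited miR-222-5p alone among the members, which had 4 to 22 counts per library.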
